A study of Mus musculus with 14 samples.

Results

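Astrocytes null for connexin43 (Cx43, the gap junction protein encoded by Gja1) were compared with wild-type astrocytes given a small interfering RNA (siRNA) against it. The comparison rests on 4 Cx43 null and 4 Cx43 siRNA samples, paired by replicate number. It covers every probe with 1 gene symbol that was measured in at least 3 of the 4 pairs. These were 10503 of the 33600 probes in the deposited table, for 8656 of the 13661 genes named in it, with 9617 probes measured in all 4 pairs and 886 in 3. Each is described by the mean of its paired log2 differences, null minus siRNA, so that a negative value is a gene lower in null than in siRNA cells.

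The cells were grown from mouse brains taken within 1 h of birth and used after 1 passage. The titles call them cortical astrocytes, while the protocol in the labels describes dissection of whole brain. The null cells carry the label Cx43 null and are not described as transfected. The siRNA cells were wild type and were transfected at confluence with 20 ug of the siRNA construct, with the exposure given as 36 h in the design text and 48 h for the protein samples in the protocol. The sources used here name no strain, sex or Cx43 allele, no null group given siRNA and no group given an unrelated siRNA. Genotype, transfection and the time since Cx43 was targeted therefore cannot be told apart. Of the sex-linked genes, Xist had values in 3 null and 0 siRNA samples. Eif2s3y, on the Y chromosome, read 3.54 to 4.17 in null and 3.10 to 3.72 in siRNA samples. Whether the cultures of the groups differed in sex was not tested, and such a difference could not be told apart from the others. No untreated wild-type value entered, so the extent of the knockdown was not tested and a difference does not tell which group moved, and in bulk RNA fewer cells of a type and less RNA per cell cannot be told apart.

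Astrocytes are the support cells of the brain that take up glutamate, buffer potassium and supply metabolites to neurons. Cx43 forms the channels that couple them into networks and also hemichannels that open to the outside of the cell. Astrocytes also take part in innate immunity: type I interferon, or RNA sensed in the cytoplasm, switches on a shared set of antiviral genes through factors that include IRF9 and IRF7, and many of these genes carry an interferon-stimulated response element in their promoter.

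In each group samples 1 and 3 were labelled with Cy3 and samples 2 and 4 with Cy5, from 20 ug of total RNA, and between 17849 and 26826 probes per sample had a value. Over the probes measured in both samples compared, samples 1 and 2 correlated at 0.991 in the null group and 0.988 in the siRNA group. Samples 3 and 4 correlated at 0.927 and 0.967. Across these 2 sets of consecutive samples the correlation was 0.753 to 0.781 in the null group and 0.769 to 0.801 in the siRNA group, below the 0.86 to 0.919 between null and siRNA samples of the same number. Each set therefore resembled itself across the 2 groups more than it resembled the other set of its own group. Over the 14728 probes with 8 values, the paired differences of pairs 1 and 2 correlated at 0.926 and those of pairs 3 and 4 at 0.816. Across the sets they correlated at 0.2 to 0.272. Consecutive samples of opposite dye may share an array, which the labels do not settle, and the design text speaks of 4 independent cultures per group without naming a sample's culture. The p-values over 4 pairs therefore measure only how these samples vary, which may be partly technical, and can be too small. A stricter fit with consecutive samples averaged, which leaves 2 differences per gene, is called the averaged fit. A called gene did not pass it unless its averaged value or a call in both fits is given.

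Over 4 pairs, 358 probes (351 genes) were higher and 223 probes (203 genes) were lower in null cells at an adjusted p under 0.05 (limma with Benjamini-Hochberg adjustment over 16439 probes). That is 5.53% of the described probes, against 4.83% of all probes tested (2.79% higher and 2.04% lower). The median difference was 1.68 among the higher probes and -1.92 among the lower ones, while it was 0.11 over all described probes, with a median SD over pairs of 0.63. In the averaged fit 6 probes were higher and 28 lower, where 0.262% of all probes tested passed (0.0426% higher and 0.219% lower). Both fits called 33 probes, 5 higher and 28 lower. The lower side thus held most of the calls of the averaged fit. With consecutive samples as a random block instead, 177 probes were higher and 122 lower. Every probe called in both fits differed by at least 9.42-fold, and past 8-fold 59 described probes were lower and 35 higher. Without replicate 3 the count over the remaining pairs was 5, and without replicates 1, 2 or 4 it was 129, 53 or 44. Of the 33 probes called in both fits, 33, 25, 4 and 22 were still called without replicates 1, 2, 3 and 4 in turn, and all 33 kept their sign. The 4 called without replicate 3 were Cxcl10, Fosl1, Gsta3 and Hpgd. Of the described probes 2423 were higher and 1616 were lower in every measured pair (21% and 16.5% of all probes tested were), and 6464 had no single sign.

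**Figure D1:**
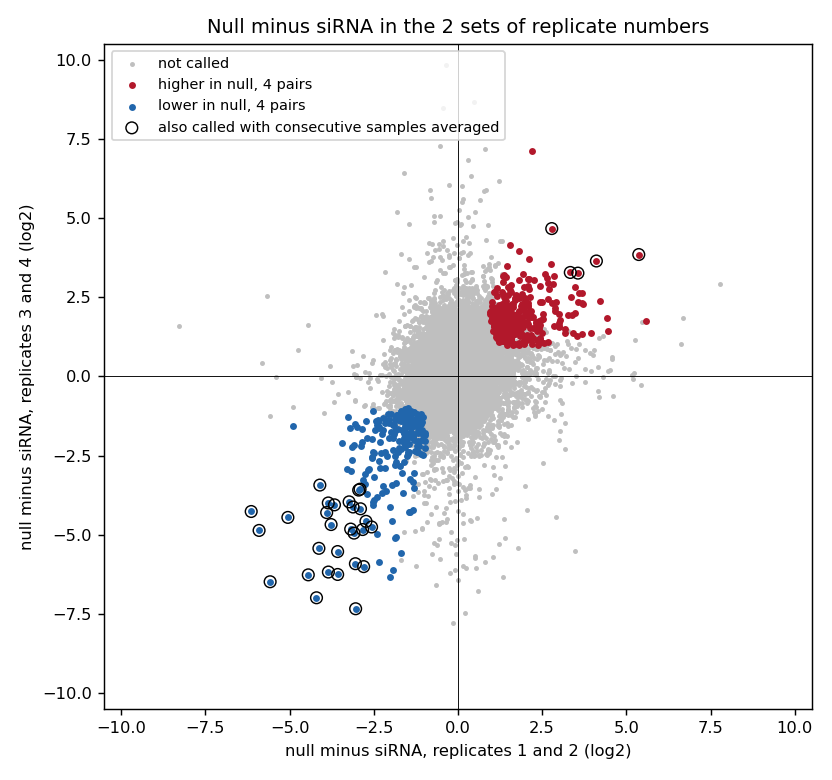
Null minus siRNA difference (log2) of each probe in replicates 1 and 2 (x axis) against replicates 3 and 4 (y axis). Each difference is between the group means of the samples measured in that set. Each point is 1 described probe; red and blue points were called over 4 pairs (358 higher and 223 lower in null), and rings mark the 33 that were also called with consecutive samples averaged, most of them at the lower left.

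Gja1 itself, on chromosome 10, separated the groups within every pair. It read -1.17, -1.05, 2.82 and 3.03 in null samples 1 to 4 and 1.93, 2.13, 5.47 and 5.70 in the siRNA samples (log2, each sample's median probe at 0). Samples 3 and 4 of both groups lay above samples 1 and 2, so that null samples 3 and 4 exceeded siRNA samples 1 and 2 and the groups overlap when the pairing is ignored. The mean difference was -2.90 ± 0.28 (SD, n = 4 pairs), 7.46-fold, so the null signal was 13.4% of that in siRNA cells (adjusted p = 0.0103, limma over 4 pairs). The averaged fit gave an adjusted p of 0.0712, and the exact two-sided sign-flip permutation test gave p = 0.125, the smallest that 4 pairs allow. Gja1 has 1 probe here, and whether it lies within the deleted part is unknown, so the null signal may or may not come from Gja1 transcript.

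Of 5 measured connexin and pannexin genes, Gja1 was the 1 called over 4 pairs. Panx1, a pannexin that forms large-pore channels in the same membrane, differed by -1.68 on its brighter probe and by -1.53 on the other, with adjusted p-values of 0.0517 and 0.0942 (limma over 4 pairs). Its brighter probe read -0.45 to 0.40 in null cells and 1.23 to 2.29 in siRNA cells, without overlap, as held for 3.11% of all probes tested. Gjc1 (Cx45) differed by 0.39 (adjusted p = 0.506). Gjb2 (Cx26), which astrocytes can also use, was not measured in enough pairs. Of the 10 genes on either side of Gja1 on its chromosome, 7 were measured and 0 passed over 4 pairs (limma; 3 had an unadjusted p under 0.05).

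Interferon-response genes were lower in null than in siRNA cells. Of 47 measured genes of the list, 28 were lower and 1 was higher over 4 pairs, and 10 of the 28 were also lower in the averaged fit. Over all 8656 genes, taking the brightest probe of each, 182 were lower and 316 higher over 4 pairs, and 25 and 5 in both fits. The median difference of the list was -2.33, against 0.13 for all genes, and 44 of the 47 were below 0. The median was -1.33 in replicates 1 and 2 and -3.62 in replicates 3 and 4. The mean level of the 40 list genes measured in all 8 samples was 0.53 to 1.73 in null against 2.94 to 4.19 in siRNA samples, so these means do not overlap.

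The promoters of 6 of these genes are shown because they carry the element through which interferon factors act, within genes that were lower in both fits. The stretches are 100 bases of the GRCm38.p6 assembly from upstream of RefSeq's gene starts, on the gene's own strand, 5′ to 3′. Capitals mark every match to GAAA, any 2 bases and GAAA on either strand, and where matches overlap the capitals run on. The stretches were placed around the match nearest the start, so not all of them reach it. They lie at chr11:48992269-48992368 for Tgtp1 (minus strand), chr19:34640759-34640858 for Ifit1 (plus), chr4:156200830-156200929 for Isg15 (minus), chr3:142559944-142560043 for Gbp3 (plus), chr11:48871421-48871520 for Irgm1 (minus) and chr12:26456518-26456617 for Rsad2 (minus).
Tgtp1: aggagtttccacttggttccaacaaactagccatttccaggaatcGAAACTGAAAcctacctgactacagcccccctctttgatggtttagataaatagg
Ifit1: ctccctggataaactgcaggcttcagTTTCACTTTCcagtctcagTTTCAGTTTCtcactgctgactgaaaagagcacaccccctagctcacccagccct
Isg15: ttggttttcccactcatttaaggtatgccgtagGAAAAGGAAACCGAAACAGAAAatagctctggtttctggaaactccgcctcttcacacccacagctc
Gbp3: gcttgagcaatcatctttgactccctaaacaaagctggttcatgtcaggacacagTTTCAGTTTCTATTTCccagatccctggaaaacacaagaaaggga
Irgm1: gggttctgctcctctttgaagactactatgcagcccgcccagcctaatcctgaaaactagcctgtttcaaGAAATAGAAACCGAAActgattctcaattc
Rsad2: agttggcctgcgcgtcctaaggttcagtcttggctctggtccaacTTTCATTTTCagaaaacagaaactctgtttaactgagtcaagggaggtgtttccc

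The 250 bases before the start held this pattern in 12 of the 24 interferon-list genes that were lower over 4 pairs and had a promoter in the RefSeq table (50.0%). It occurred in 936 of all 27025 genes with a promoter there (3.46%) and in 3.34% of the 7038 described genes with one. Promoters were at hand for 168 of the 203 genes lower over 4 pairs and for 276 of the 351 higher ones. Of these 13.1% and 2.17% held it. Among the 27 genes lower in both fits 18 had a promoter, and all shares given here leave out genes without one. Isg15 held 3 overlapping matches, Irgm1 and Gbp3 2 overlapping ones each, Ifit1 2 separate ones, and Tgtp1 and Rsad2 1 each. Irf7, Isg20 and Ifi47 held none in this window, although all 3 were lower. A match describes the letters and is not shown to be a bound site. The interferon list was made of genes of that response, so a high share in it was likely whatever their direction. Its genes that were not lower were not counted. A kappa-B pattern (GGGA, any base, TTTCC) was found in 3 of the 168 lower genes (1.79%) and in 0 of the 18 that were lower in both fits. It was found in 0.512% of described genes and in 0.414% of all genes. Only 3 of the 7 lower genes of the chemokine and cytokine list had a promoter to search, and 1 of them held it. An antioxidant-response pattern, TGACNNNGC, was found in 28 of the 168 lower genes (16.7%) and in 13.8% of the higher ones, near the 13.3% of described genes and 11.5% of all genes that held it. Among the 18 genes lower in both fits 8 held it (44.4%), and 8 of the same 18 (44.4%) held the interferon pattern. The 3 patterns were searched on both strands and counted separately, also where matches overlapped.

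The gene for IRF7, which drives the second wave of interferon production, read 0.91, 1.26, -2.05 and -2.21 in null samples 1 to 4. Irf7 was at 3.79, 4.45, 5.08 and 5.34 in the siRNA samples. The groups do not overlap, as held for 6.41% of all probes tested with null above siRNA and 3.11% with null below, and the gap was 4.30 log2 units wider in replicates 3 and 4 than in 1 and 2 (adjusted p = 5.35e-05 for that difference, limma, with the same reservation about consecutive samples). Over 4 pairs Irf7 was 36.5-fold lower (-5.19 ± 0.85 SE, adjusted p = 0.0291), and the averaged fit gave 0.0349.

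Isg15, a ubiquitin-like protein attached to other proteins after interferon, read 1.23, 0.94, 0.69 and 1.64 in null against 5.05, 5.38, 6.15 and 7.04 in siRNA cells. It was 27.5-fold lower in null (adjusted p = 0.0103 over 4 pairs and 0.0108 averaged). Usp18, which removes Isg15 from its targets and damps the receptor, was 16.2-fold lower (adjusted p = 0.0173 and 0.0260). Both the modifier and the enzyme that takes it off were therefore lower in the same cells.

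Ifit1, which binds viral RNA, read 2.75, 2.48, -0.62 and 0.85 in null against 5.99 to 6.74 in siRNA cells. Its difference was -4.92 ± 0.58 SE (adjusted p = 0.0162 and 0.0154). Mx2, a dynamin-like antiviral GTPase measured in 3 pairs, read -2.07 to -1.89 in null against 2.20 to 4.55 in siRNA cells (adjusted p = 0.0107 and 0.0108). Rsad2 (viperin), which makes a chain-terminating nucleotide, differed by -3.27 ± 0.27 SE (adjusted p = 0.0103 and 0.0426), and Isg20, an RNA exonuclease, by -3.92 on its brightest probe (adjusted p = 0.0103 and 0.0174). The other Isg20 probes differed by -1.38 and -1.47 and did not pass. In each of these 4 genes, chosen by their calls, no null sample reached the lowest siRNA sample, as held for 3.11% of all probes tested.

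The list also holds interferon-inducible GTPases, which act on vacuoles of intracellular microbes. Of these Tgtp1 read 0.75, 0.69, -0.34 and -0.63 in null against 4.87, 4.97, 6.26 and 6.76 in siRNA cells. It had the most negative difference of the list, -5.60 ± 0.59 SE (48.4-fold; adjusted p = 0.0121 and 0.0108). Gbp3 differed by -4.41 and Irgm1, measured in 3 pairs, by -4.15, and both passed in both fits. Ifi47 differed by -4.17 and passed over 4 pairs (adjusted p = 0.0470) but not averaged (0.0822). The gap was wider in replicates 3 and 4 for Tgtp1 by 2.79, for Gbp3 by 3.21 and for Ifi47 by 4.34 log2 units (adjusted p = 0.00106, 0.000442 and 0.000152, limma).

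Ifitm1, a membrane protein that blocks virus entry, was the interferon-list gene called in the other direction. It read 0.85, 0.76, 3.41 and 2.92 in null against -1.01 to -0.67 in siRNA cells. It was 7.42-fold higher in null over 4 pairs (adjusted p = 0.0317) and not called in the averaged fit (0.115). Its relative Ifitm3 differed by -0.15. The antiviral genes Mx1, Oas1a, Oasl1 and Eif2ak2 were not measured in enough pairs.

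**Figure D2:**
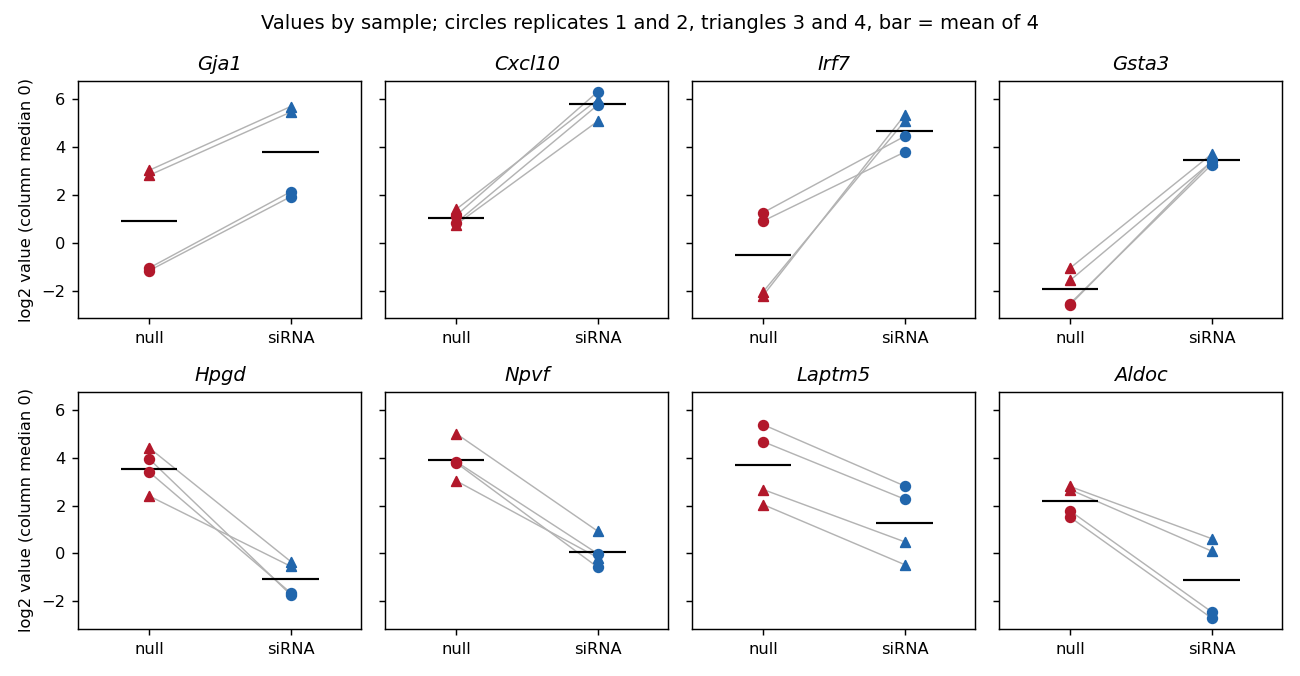
Values (log2, each column's median probe at 0) of 8 genes in the 4 null samples (red) and the 4 siRNA samples (blue). Circles are replicates 1 and 2, triangles 3 and 4, grey lines join samples of the same number and bars are means of 4; Cxcl10, Irf7 and Gsta3 are lower in every null sample than in any siRNA sample, while Gja1 differs within pairs and overlaps between sets.

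Several chemokines, the secreted proteins that attract leukocytes, were also lower. Of 15 measured genes in the chemokine and cytokine list 7 were lower and 0 higher over 4 pairs, and 5 passed both fits. The list has 31 genes, and the others were not measured in enough pairs. Some of those had values in more siRNA than null samples, such as Cxcl9 (4 against 0) and Il6 (4 against 2). Lif and Tslp had values in more null samples, and the counts describe the measured genes only. The list's median difference was -1.12. Cxcl10, a ligand for T cells and a target of both interferon and NF-kB, read 0.83, 1.14, 0.76 and 1.40 in null against 5.76, 6.31, 5.08 and 5.99 in siRNA cells. The 2 groups were narrow and far apart, 27.0-fold (-4.75 ± 0.27 SE, adjusted p = 0.00467 and 0.0108), and the call held under all the settings tried. Cxcl11, a second ligand of the same receptor, read -2.09 to -1.65 in null against 2.59, 2.30, 4.17 and 4.63 in siRNA cells (41.0-fold, adjusted p = 0.0103 and 0.0108).

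Ccl7, a monocyte attractant, had the most negative difference of all described probes called in both fits, -5.79 ± 0.33 SE over 3 pairs (55.5-fold, adjusted p = 0.0103 and 0.00537). It read -1.61, -1.16 and -1.06 in the null samples measured and 4.04 to 5.69 in siRNA cells. Ccl2, which draws monocytes through the same receptor, read 3.05, 2.37, 1.68 and 2.44 in null against 6.51, 6.71 and 6.36 in the siRNA samples measured (17.9-fold, adjusted p = 0.0121 and 0.0154). Ccl5 read 4.69, 4.90, -0.45 and 0.29 in null against 7.98, 8.76, 4.89 and 6.02 in siRNA cells. Both groups read lower in replicates 3 and 4, so that null sample 2 was level with siRNA sample 3, while the difference within pairs was -4.55 ± 0.45 SE (adjusted p = 0.0107 and 0.0154). Cx3cl1 and Csf1, which act on microglia, differed by -1.97 and -1.53 and passed over 4 pairs only, and Tnf and Il33 differed by -0.56 and -0.33 without passing.

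**Figure D3:**
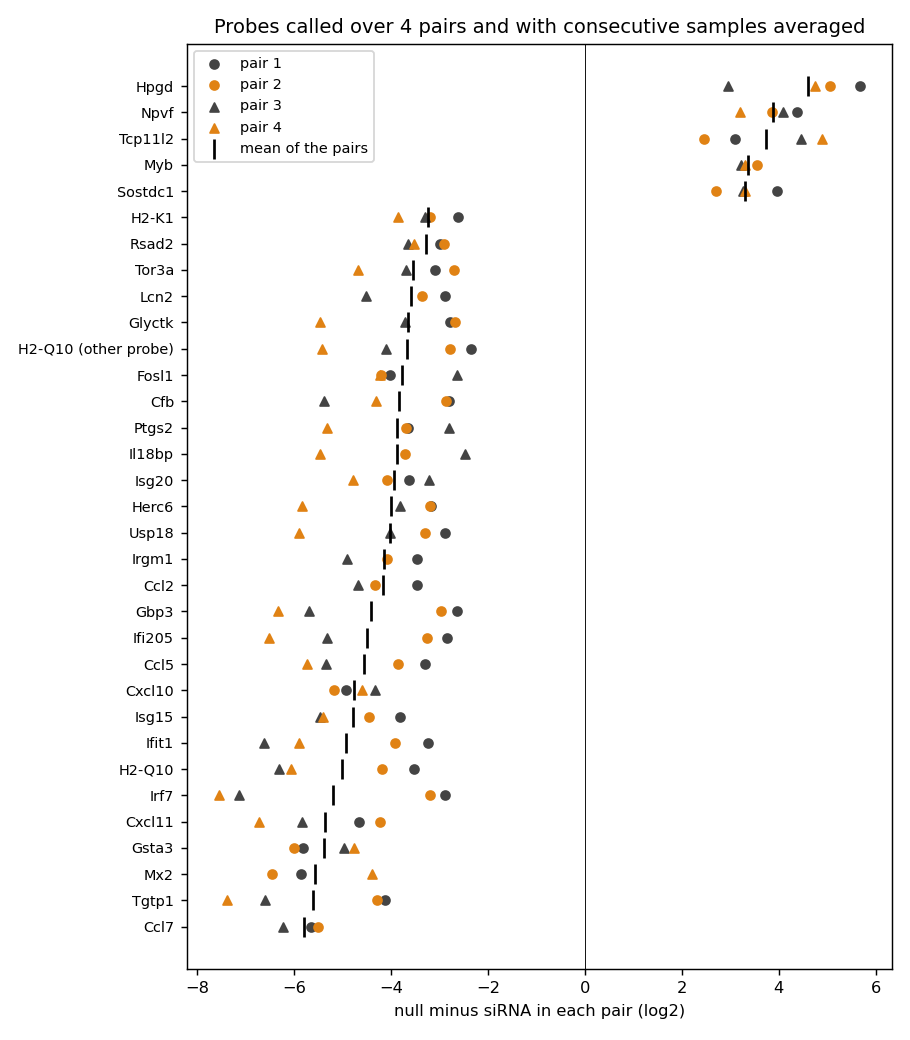
Null minus siRNA difference (log2) in each pair for the 33 probes called over 4 pairs and with consecutive samples averaged. Circles are pairs 1 and 2, triangles pairs 3 and 4, bars the means; the 28 lower probes run from Ccl7 at -5.79 to H2-K1 at -3.24, and the 5 higher ones from Sostdc1 at 3.31 to Hpgd at 4.61.

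A part of the genes of MHC class I presentation was also lower. Of 15 measured genes 3 were lower and 0 higher over 4 pairs, with a median difference of -1.63. Psmb10, an interferon-inducible catalytic subunit of the proteasome, read 1.43, 1.79, -0.24 and -0.95 in null against 3.35 to 4.80 in siRNA cells (-3.45 ± 0.68 SE, adjusted p = 0.0425 over 4 pairs). Erap1, the peptidase that trims peptides for class I, differed by -2.52, and the non-classical H2-T23 by -2.34. B2m, the shared light chain, differed by -0.47 and did not pass.

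Single probes named for class I heavy chains had larger differences, but these genes are near-identical copies and a spotted oligonucleotide may not tell them apart, so their identity is uncertain. Both probes named H2-Q10 were lower in both fits, by 5.01 and 3.66 on the log2 scale. One H2-K1 probe was lower in both fits (-3.24, adjusted p = 0.0103 and 0.0459), while its brighter probe differed by -1.53 and did not pass (0.0630 over 4 pairs). The 3 probes named H2-D1 differed by -2.67, -3.25 and -3.26, and 2 of them passed over 4 pairs.

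Among NF-kB targets the calls fell on a few genes. Of 23 measured 5 were lower and 1, Traf1, was higher over 4 pairs, with a median of -0.90. Ptgs2, the inducible cyclooxygenase of prostaglandin synthesis, read -1.14, -1.03, 0.62 and -2.52 in null against 2.50 to 3.43 in siRNA cells. It was 14.6-fold lower (-3.86 ± 0.42 SE, adjusted p = 0.0127 and 0.0188). Ptx3, a secreted pattern recognition protein, differed by -4.11 and Vcam1, a leukocyte adhesion molecule, by -2.15 over 3 pairs, and neither passed in the averaged fit. The feedback inhibitors Nfkbia and Tnfaip3 differed by -0.35 and -0.44 and did not pass.

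Cfb, a protease of the alternative complement pathway, was lower in both fits on its brighter probe (-3.83 ± 0.47 SE, adjusted p = 0.0169 and 0.0356), while its other probe differed by -0.28. Cfb was the 1 lower gene of 16 measured in the complement and coagulation list, which leaned the other way. Hc (1.67), C1qa (1.56) and Clu (1.47) were higher over 4 pairs, and 12 genes lay above 0, with a median of 0.85. Lcn2, an iron-carrier binding protein used as a marker of reactive astrocytes, was lower on 1 probe (-3.58 over 3 pairs, adjusted p = 0.0186 and 0.0303). That probe read 3.58, 3.53, 1.69 and 2.46 in null against 6.47, 6.88 and 6.20 in siRNA cells. The other Lcn2 probe read 4.20, 4.33, 1.76 and 2.38 in null against 1.78, 2.64 and 6.30 in siRNA cells. The 2 probes thus disagree in siRNA samples 1 and 2, and the Lcn2 result is uncertain.

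Of 27 measured genes in the reactive-astrocyte list 7 were lower and 1, Fbln5, higher over 4 pairs. The list's median of -0.35 turns to 0.09 when each column is scaled to the same spread, so it has no settled direction. The lower ones included Timp1, an inhibitor of matrix proteases (-3.26, adjusted p = 0.0296), beside Cxcl10, Ptx3, Lcn2 and Gbp2, which are also in the immune lists. Fbln5, an elastic-fibre protein, read 3.76 to 4.06 in null against 0.55 to 1.44 in siRNA cells (8.05-fold higher, adjusted p = 0.0103 over 4 pairs and 0.0544 averaged). Serpina3n differed by 3.07 in replicates 1 and 2 and by -1.18 in 3 and 4. Gfap and Vim, the intermediate filament markers, were not measured in enough pairs.

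Gsta3, a glutathione transferase that detoxifies electrophiles, was one of the clearest single differences. It read -2.54, -2.59, -1.57 and -1.06 in null against 3.27, 3.41, 3.39 and 3.71 in siRNA cells. It was 41.8-fold lower (-5.39 ± 0.32 SE, adjusted p = 0.00467 and 0.00940), and the call held under all the settings tried. Of 29 measured genes of the Nrf2 and glutathione list, 5 were lower and 0 higher over 4 pairs. The others were Srxn1, which repairs oxidised peroxiredoxins (-3.08 on its brighter probe and -2.28 on the other), the quinone reductase Nqo1 (-3.07), the thioredoxin reductase Txnrd1 (-2.77 over 3 pairs) and the exporter Abcc1 (-1.99). All 4 were above 0.05 in the averaged fit, at 0.0530, 0.0530, 0.0518 and 0.237. The median of the list, -0.61, became 0.04 with columns scaled to the same spread, and Hmox1, Gclm and Gclc did not pass, at -1.26, -1.40 and -0.73.

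Transcription factors of the early response gave 3 lower and 0 higher of 21 measured. Fosl1, an AP-1 subunit, read -1.13, -0.82, -1.95 and -2.71 in null against 2.89, 3.37, 0.69 and 1.52 in siRNA cells (13.6-fold lower, adjusted p = 0.0103 and 0.0234). Nr4a2 and Klf4 differed by -2.76 and -2.20 and passed over 4 pairs only. Other probes lower in both fits were Ifi205, a DNA-sensing family member (-4.48), Il18bp, the secreted trap for interleukin 18 (-3.88), Herc6, an Isg15 ligase (16.1-fold on 1 of 5 probes), Tor3a (-3.54) and Glyctk, a glycerate kinase (-3.65). Of the other Herc6 probes 2 were lower over 4 pairs and the remaining 2 differed by -0.30 and 0.16.

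On the higher side 5 genes passed both fits. Hpgd, the enzyme that inactivates prostaglandins, read 3.96, 3.41, 2.41 and 4.42 in null against -1.73, -1.65, -0.54 and -0.34 in siRNA cells. It was 24.4-fold higher in null (4.61 ± 0.46 SE, adjusted p = 0.0107 and 0.0134), with no overlap. With Ptgs2 lower, the synthetic and the degrading enzyme of prostaglandins differed in opposite directions. The prostaglandin synthases Ptgds and Hpgds were 6.08-fold and 3.54-fold higher over 4 pairs (adjusted p = 0.0166 and 0.0379) and did not pass averaged. Together 3 of the 12 measured prostaglandin genes were higher and 1 was lower.

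Npvf, a neuropeptide precursor, read 3.79, 3.84, 5.01 and 3.04 in null against -0.58 to 0.93 in siRNA cells (14.7-fold higher, adjusted p = 0.0103 and 0.0188). Tcp11l2 read 3.33, 3.14, 4.50 and 4.57 in null against -0.31 to 0.68 in siRNA cells (13.2-fold higher, adjusted p = 0.0164 and 0.0374). Sostdc1, a secreted antagonist of BMP and Wnt ligands, read 2.46, 2.13, 3.64 and 3.74 in null against -1.51 to 0.44 in siRNA cells (9.91-fold higher, adjusted p = 0.0103 and 0.0383). Myb, a transcription factor of progenitor cells, differed by 3.36 over 3 pairs (adjusted p = 0.0127 and 0.0352). It read -0.02 to 1.90 in null against -3.57 to -1.31 in siRNA cells. In all 5 genes the lowest null value lay above the highest siRNA value, as held for 6.41% of all probes tested. These 5 were chosen by their calls, which favours such a gap.

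Other large positive differences passed over 4 pairs only. Ttr, the thyroid hormone carrier made by the choroid plexus, read 1.94, 2.33, 4.17 and 4.87 in null against -0.34, 0.22, -2.76 and -2.43 in siRNA cells. Its difference of 4.65 was 4.91 log2 units wider in replicates 3 and 4 (adjusted p = 2.11e-05, limma). Aldoc, the brain aldolase of glycolysis, was 9.84-fold higher, Nnat, a small membrane protein of developing brain, 8.95-fold and the neurotrophic factor Nrtn 8.70-fold (adjusted p = 0.0183, 0.0107 and 0.0107 over 4 pairs, 0.0590, 0.0530 and 0.0530 averaged). Pik3cg, a lipid kinase subunit of leukocytes, was 8.97-fold higher and Rdm1 8.82-fold. Ccdc34 and Glycam1 were 12.7-fold and 8.72-fold higher on 1 probe each, while their other probes were higher by at most 2.30-fold and did not pass.

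Genes of microglia, the resident macrophages that grow in astrocyte cultures, lay higher in null cells, most of them without passing the test. Of 26 measured 7 were higher and 0 lower over 4 pairs, 0 passed in the averaged fit (limma; 13 had an unadjusted p under 0.05 there), and 25 of 26 were above 0, with a median of 1.43. The median was 2.36 in replicates 1 and 2 and 0.39 in 3 and 4. The mean level of the 24 genes measured in all samples was 3.84, 4.00, 1.95 and 2.53 in null against 1.33, 1.70, 1.55 and 1.96 in siRNA samples. Null sample 3 thus lay within the siRNA range. Laptm5, a lysosomal protein of blood cells, read 4.68, 5.39, 2.04 and 2.67 in null against 2.27, 2.82, -0.47 and 0.49 in siRNA cells (5.34-fold higher, adjusted p = 0.0119). Spi1, the myeloid master factor PU.1, was 5.55-fold, Aif1 (Iba1) 4.89-fold, Fcgr3 5.24-fold and C1qa 2.94-fold higher. Coro1a differed by 2.60 on its brighter probe and by -0.34 on the other. Microglia also express interferon and chemokine genes, which were lower where their markers were higher, and the part of this list in those results was not tested.

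**Figure D4:**
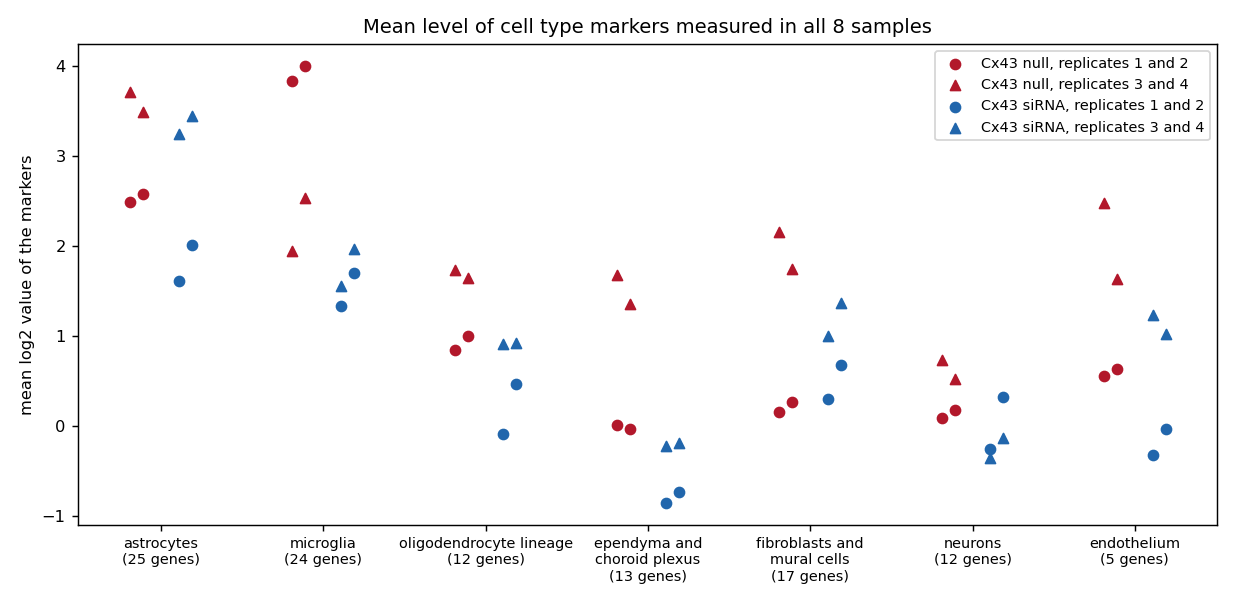
Mean value (log2) of the markers of each cell type that were measured in all 8 samples, with 1 point per sample (red null, blue siRNA; circles replicates 1 and 2, triangles 3 and 4). The microglial mean is 3.84 and 4.00 in null samples 1 and 2 and at most 2.53 elsewhere, and the other lists lie higher in replicates 3 and 4 of the null group than in replicates 1 and 2.

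The astrocyte label was checked against its markers. Over the 25 markers measured in all samples the mean value was 2.49 to 3.71 in null against 1.61 to 3.44 in siRNA samples, where the median probe is at 0; without intensities this does not show that each is above background. Of 28 measured 5 were higher and 2 lower over 4 pairs, and 0 passed in the averaged fit (limma; 9 had an unadjusted p under 0.05 there). The lower ones were Gja1 itself and Tnc, a matrix glycoprotein (-1.48, adjusted p = 0.0353). The higher ones included Aldoc, the bicarbonate cotransporter Slc4a4 (1.87), the acyl-CoA synthetase Acsbg1 (1.60) and Clu (1.47). Glul, glutamine synthetase, differed by 1.10 on its brighter probe without passing and by 1.70 on the other, which passed (adjusted p = 0.0247). The glutamate transporter gene Slc1a2 read below the median probe in all 7 samples measured, from -1.69 to -0.26 in null against -1.09 to -0.16 in siRNA cells. Aldh1l1, a folate enzyme used as a pan-astrocyte marker, differed by -1.10 and did not pass (adjusted p = 0.120), although it was lower in null in every pair. The 2 Aqp4 probes went apart, at 0.59 and -1.49, and neither passed. Gfap, S100b and Slc1a3 were not measured in at least 3 pairs, so the label rests on the other markers.

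Lists of further cell types held a few higher genes and 0 lower ones over 4 pairs, where 316 of all 8656 genes were higher, and 0 of their genes passed in the averaged fit (limma; 6 ependymal, 3 oligodendrocyte, 2 neuronal and 4 fibroblast or mural genes had an unadjusted p under 0.05 there). In the ependymal and choroid plexus list 3 of 15 were higher and 0 lower. These were Ttr, the cilia factor Foxj1 (1.70) and the cilia gene Ccdc39, which read 0.12 to 1.25 in null against -2.36 to -1.04 in siRNA cells. The oligodendrocyte list gave 2 of 13, Sox10 (1.66) and Tmem163 (1.90), and the neuronal list 2 of 13, Gad2 (1.89) and Stmn2 (1.44). In the neuronal list 8 genes were above 0 and 5 below, with a median of 0.04 in replicates 1 and 2 and of 1.14 in 3 and 4. The fibroblast and mural list gave 1 of 20, with 11 above 0 and 9 below and a median of 0.05, under the 0.13 of all genes. Mean levels were -0.03 to 1.68 in null against -0.85 to -0.19 in siRNA samples for the ependymal list and 0.84 to 1.73 against -0.09 to 0.92 for the oligodendrocyte list. The parts of these cell types in the higher genes above were not tested.

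**Figure D5:**
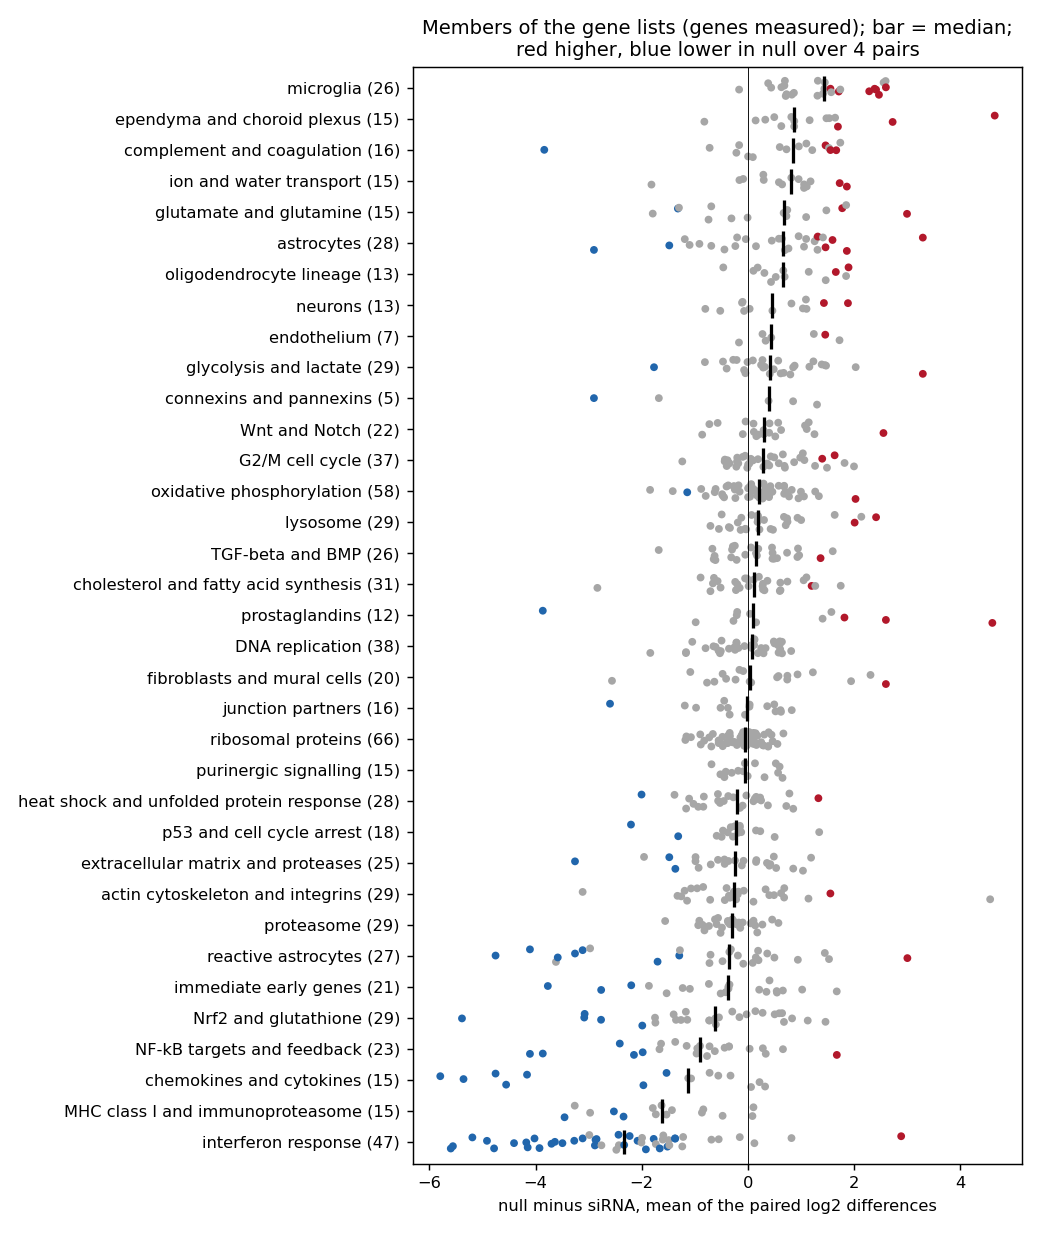
Mean paired difference (log2, null minus siRNA) of every measured gene of 35 lists, 1 row per list with the number of genes measured. Red and blue points were called higher and lower in null over 4 pairs and black bars are list medians, from 1.43 for microglia to -2.33 for the interferon response.

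The remaining lists held few calls, where 316 of all 8656 genes were higher and 182 lower over 4 pairs. Counts this small are not read as results about these lists. Glutamate handling gave 2 higher, the AMPA receptor subunits Gria2 (8.01-fold) and Gria1 (3.43-fold), and 1 lower, the neutral amino acid carrier Slc1a4 (-1.32), of 15. The potassium channel Kcnk2 (1.73) and Slc4a4 were the 2 higher of 15 ion and water transport genes. Cenpa (1.64) and Stmn1 (1.40) were the 2 higher of 37 G2/M genes, while 0 of 38 replication genes passed (limma; 7 had an unadjusted p under 0.05). Extracellular matrix and protease genes gave 3 lower of 25, among them Timp1 and Matn2 (-1.36). Cav1, the caveolar coat protein, was the 1 lower of 16 junction partners (-2.60, 6.05-fold). Asns, asparagine synthetase of the stress response, was lower (adjusted p = 0.0186) and Herpud1 higher (1.33) among 28 heat shock and unfolded protein genes.

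The metabolic and housekeeping lists also gave few calls beside the 316 higher and 182 lower of all 8656 genes. Their medians lay on both sides of the 0.13 of all genes. The median was 0.42 for glycolysis, with 20 of 29 genes above 0, and 0.22 for oxidative phosphorylation. It was -0.05 for ribosomal proteins and -0.30 for the proteasome, with 22 of 29 genes below 0, and both turned positive with columns scaled to the same spread (0.568 and 0.17). The proteasome median was -0.84 in replicates 1 and 2 and -0.07 in 3 and 4. Of 58 oxidative phosphorylation genes Ndufa3 was higher (2.03) and Cycs lower (-1.14). Of 29 glycolysis genes Aldoc was higher and Pkm, pyruvate kinase, lower (-1.77). The 29 constitutive proteasome genes, 66 ribosomal protein genes and 15 purinergic signalling genes gave 0 calls in either fit (limma; 5, 5 and 1 had an unadjusted p under 0.05 over 4 pairs). The smallest unadjusted p-values belonged to Rps21 (-1.16, adjusted p = 0.0669) among ribosomal, Psma2 (-1.56, adjusted p = 0.0947) among proteasome and P2ry2 (-0.68, adjusted p = 0.158) among purinergic genes. Plk2 (-2.20) and Cdkn2b (-1.31) were the 2 lower of 18 p53 and arrest genes. Wnt5b (2.56), Smad4 (1.37), Elovl5 (2.30-fold), Ctsb (2.01) and Itgb5 (1.56) were higher in their lists, and each of these calls was over 4 pairs only.

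The 2 sets of replicates differed in the null minus siRNA difference itself. Of the 9617 probes measured in all pairs 2803 passed the test of pairs 3 and 4 against pairs 1 and 2 (limma), where 29.1% of all such probes passed. The test takes its error from consecutive samples, which may share an array. Its p-values, here and for single genes, may therefore measure only technical spread and can be too small. The difference was more positive in pairs 3 and 4 for 1749 and more negative for 1054, and 1970 of them had opposite signs in the sets. Dropping replicate 1 or 2 left 487 or 453, and dropping replicate 3 or 4 gave 4529 or 4303. The size of this count thus depends on which set loses a sample. Pih1d2 had the widest gap, reading -0.52, -0.14, 6.43 and 7.21 in null against -0.03, 0.08, -3.08 and -2.98 in siRNA cells. Stat4 reversed, with a difference of 3.48 in replicates 1 and 2 and of -5.51 in 3 and 4. Of the 57 probes whose difference changed by more than 5 log2 units, 10 lay in grid column 28 of the print blocks and 7 in column 22 (17.5% and 12.3%, against 5.85% and 6.03% of the probes measured in all pairs). Of the 57, 0 were called over 4 pairs and 26 had an unadjusted p under 0.05 (limma).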

How the data were processed

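RNA from 4 Cx43 null and 4 Cx43 siRNA samples was measured on spotted mouse oligonucleotide arrays, per the labels. The authors deposited a table of log2 values with a median of 0 in every column; their scanner, background correction and normalization steps are not given in any source used here. The scale was taken as log2 from the range of the values. Without intensities the signal over background is unknown, and precision is limited by how many arrays there are. Of 33600 probes 18179 have 1 symbol in the platform annotation, 87 several and 15334 none here; RefSeq (GRCm38.p6) changed 0 symbols.

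Samples were grouped by title. Null minus siRNA differences of same-numbered samples were fitted with limma 3.58.1 (lmFit, eBayes) in R 4.3.3 for 16439 probes with at least 3 pairs, two-sided, with Benjamini-Hochberg adjustment over all of them, and called at an adjusted p under 0.05. In the averaged fit a missing sample left the other of its set. Same-numbered null and siRNA samples deviated together (correlations 0.618, 0.635, 0.646 and 0.564), which is the basis of the pairing, but so did the other number of the same set (0.392 to 0.596). A second limma fit compared pairs 3 and 4 with pairs 1 and 2. The fits were also run on simulated data, with independent pairs and with consecutive pairs sharing an array. The outcome is not given here, so this does not show that the calls are correct. Lists use the brightest probe of a gene, without a set test; 1276 of 1277 entries were found and 823 genes measured. Named genes are Gja1, the 12 largest called differences each way with 1 sign in 4 pairs, up to 4 called genes per list (2 of smallest p where none was called), 6 each way between sets, 24 fixed genes and the 10 neighbours of Gja1 on either side; others, such as those called in both fits, were chosen after their values were seen. The comparison and the lists were chosen with earlier results of these data known. Motifs were searched in RefSeq promoters with Python 3.11.15. Alternatives changed the block, averaging, filters, scaling, moderation, threshold and replicates left out.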

Additional observations from a re-analysis of the deposited data

Results flagged for a closer look

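In 8 of 307 sets of 4 values 1 sample lay apart, its gap to the nearest other value taking up more of the set's range than Dixon's critical value; chance flags about 1 in 20 sets. Null sample 3 was the high one for Orc2 (0.865 of the range), Rps15a (0.99), Aldh1l1 (0.84) and Nus1 (0.947) and the low one for Coro1a (0.871). Null sample 4 was the low one for Nqo1 (0.879) and for the mean level of the reactive-astrocyte list (0.906). The siRNA sample 3 was the high one for Ccdc39 (0.849).

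The null minus siRNA difference was more positive in pairs 3 and 4 than in pairs 1 and 2 by 10.2 log2 units for Pih1d2, 8.94 for Egfl6, 8.21 for Bhlha9, 8.21 for Myl6, 8.02 for Arl2bp and 7.81 for Cops5. It changed by -8.99 for Stat4, -7.67 for Rpl5, -7.64 for Ly6e, -7.36 for Dek, -7.34 for Saa3 and -7.22 for Lgr4. These 12 were named for the size of this difference, and each passed limma's test of it, with the same reservation about consecutive samples. In Myl6 the change came with siRNA samples 3 and 4, which read -2.24 and -0.78 beside 6.08 to 7.58 in the other 6 samples. In Rpl5 and Ly6e it came with null samples 3 and 4, which read -1.42 and -1.03, and -2.64 and -2.44. Bhlha9 and Saa3 lay in grid columns whose values matched a neighbouring row better than their own.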

How the results depend on the processing

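The count of 581 called probes (358 higher, 223 lower) moved with how consecutive samples were treated. It was 53 without the replicate block, 34 with consecutive samples averaged, 299 with consecutive samples as a random block and 1014 with dye and replicate set as terms in place of the block. It was 925 with at least 2 pairs measured, 385 with columns scaled to 1 median absolute deviation, 2956 at an unadjusted p under 0.05 with 1.5-fold, and 5 to 129 when 1 replicate was left out. The share of higher genes among the called, 61.6%, was 35.8% without the block, 17.6% averaged, 71.7% scaled and 20% to 39.5% without 1 replicate; scaling moved the median of all probes from 0.0713 to 0.233. It stayed within 1.5 times of 581 under the other settings, among them quantile normalization (568) and, chosen after seeing the data, centred pairs (787) and leaving out misplaced grid columns (581).

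The 105 called list genes became 27 without the replicate block, 21 averaged and 4 to 51 without 1 replicate. Gja1 stayed negative throughout, at -2.98 to -2.47, and -2.98 to -2.80 without 1 replicate. Its difference of -2.90 passed under the other settings but not without the replicate block (adjusted p = 0.447), averaged (0.0712) or without replicate 3 (0.0557). The count of 2803 between the sets was 453 to 4529 without 1 replicate.

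Of 2074 combinations of a named gene and a setting, 1654 kept their side of the threshold, 400 lost and 10 gained the call, and 10 reversed, all in uncalled probes. These were the second Lcn2 probe (0.0972 scaled; -1.43 to 2.05 without 1 replicate), Asf1a (0.365 scaled), Nus1 (0.00201 scaled; -0.272 to 0.0557 without 1 replicate), and, without 1 replicate, Stat4 (-2.55 to 0.568, above 0 without replicates 3 or 4), Saa3 (-2.08 to 0.605, likewise) and Col1a1 (-0.246 without replicate 3). The causes were not tested. Scaling also turned the list medians of ribosomal (0.568), proteasome (0.17), heat shock (0.198), p53 (0.149), actin (0.298), purinergic (0.0634) and junction (0.19) genes above 0.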
